A study of Mus musculus with 6 samples.

Results

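The Kruppel-like factors examined here were Klf2, Klf3, Klf4, Klf5, Klf6, Klf9, Klf10, Klf13 and Klf16, 9 genes that the array platform's annotation names on 16 of its 45281 probes. Every probe carrying one of these symbols was taken, and Klf2, Klf4 and Klf5, with 6 probes, were set beside the other 6 genes, with 10 probes. The RNA came from the E14 line of mouse embryonic stem cells, kept on gelatin without a feeder layer, with serum and the cytokine LIF. Of the 6 samples, 3 were transfected with an shRNA that the titles name as directed against Ncoa3, a coactivator of nuclear receptors, and 3 with a control shRNA of scrambled sequence, all sampled at day 4. Samples within a group are labelled as biological replicates, with no word on separate cultures, so the p-values measure the spread between these samples. The treatment protocol of the labels names an Esrrb shRNA plasmid instead of one against Ncoa3, delivered by lipid transfection, and no source used here gives the share of cells that took up the plasmid.

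KLF proteins bind GC-rich and CACCC-containing DNA through a block of zinc fingers at the C-terminal end, and differ in the stretch before it, which recruits activators or repressors. In mouse embryonic stem cells Klf2, Klf4 and Klf5 bind many of the same enhancers as Pou5f1, Sox2 and Nanog, and they can stand in for one another in keeping the naive, ground-like state. Klf4 is a target of LIF and STAT3 signalling, while the others of the family are better known from differentiated tissues, Klf3 as a repressor that recruits CtBP and Klf9, Klf10, Klf13 and Klf16 as factors that bind the Sin3a corepressor.

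Sequence upstream of the start was held in RefSeq's promoter table (GRCm38.p6) for 6 of the 9 genes, Klf2, Klf3, Klf4, Klf6, Klf9 and Klf13. The 250 bases before the annotated start are shown for Klf2 and Klf4, the naive factors whose RNA was lower after knockdown, and for Klf6, the member whose RNA was higher. The windows lie at chr8:72318812-72319061 on the plus strand for Klf2, at chr4:55532476-55532725 on the minus strand for Klf4 and at chr13:5861239-5861488 on the plus strand for Klf6. Capitals mark GGGCGG on either strand, the GC box that SP and KLF proteins can bind.
Klf2: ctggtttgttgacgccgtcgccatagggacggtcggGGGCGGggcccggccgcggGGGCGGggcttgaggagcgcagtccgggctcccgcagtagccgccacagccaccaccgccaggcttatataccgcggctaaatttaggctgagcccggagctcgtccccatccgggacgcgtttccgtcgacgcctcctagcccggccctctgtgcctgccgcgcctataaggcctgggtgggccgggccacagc
Klf4: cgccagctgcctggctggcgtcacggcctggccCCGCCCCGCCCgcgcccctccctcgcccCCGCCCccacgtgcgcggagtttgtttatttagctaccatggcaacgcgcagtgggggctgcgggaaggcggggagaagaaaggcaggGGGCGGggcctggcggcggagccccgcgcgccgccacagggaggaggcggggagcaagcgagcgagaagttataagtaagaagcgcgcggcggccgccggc
Klf6: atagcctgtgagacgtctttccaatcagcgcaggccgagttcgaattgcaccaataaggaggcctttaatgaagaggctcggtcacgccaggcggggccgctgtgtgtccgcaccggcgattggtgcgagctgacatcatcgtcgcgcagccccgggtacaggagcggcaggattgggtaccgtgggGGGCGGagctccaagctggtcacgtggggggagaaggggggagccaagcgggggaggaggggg
The GC box occurred 2 times before Klf2, 4 times before Klf4, with 2 of the matches sharing a base, and 1 time before Klf6, and 32.7% of the 32851 promoter windows in the table held at least 1. Klf4 had 1 CACGTG, the E-box, between 182 and 177 bases from the start, and Klf6 had 1 between 43 and 38 bases from it, while 6.02% of windows held this motif. Neither AAGGTCA, the half-site of Esrrb and its relatives, found in 4.08% of windows, nor TTCNNNGAA, a STAT core found in 7.02%, occurred in these 3 windows on either strand. CACCC was present 1 time before Klf2 and in 52% of all windows. The windows not shown, of Klf3, Klf9 and Klf13, held 6, 0 and 3 GC boxes and 5, 1 and 1 CACCC. That of Klf9 also held 1 TTCNNNGAA. Matches are a description of these letters, and motifs were chosen with the sequences and results known.

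The arrays had 15720 to 17105 probes above background, and correlations over kept probes ran from 0.994 to 0.996 within groups and from 0.970 to 0.973 between groups. Values below are log2 of the background-corrected and quantile-normalized signal, and probes entered the test if 3 or more of the 6 arrays gave them a detection p below 0.01. The test was limma's, with Benjamini-Hochberg adjustment over all 16674 kept probes, and a probe was called when its adjusted p was under 0.05. In all 43.6% of kept probes were called, 22.7% lower and 20.9% higher after knockdown, so a call alone sets no gene apart here. Ncoa3 had a single probe, at background on all 6 arrays, with raw signals of 87.6, 91.0 and 90.9 in knockdown samples and 97.4, 85.0 and 96.4 in scrambled samples, so the size of the knockdown could not be read. Esrrb had a log2 change of -0.62 on its kept probe (adjusted p = 0.000362). Of 6 embryonic stem cell markers all were above background in both groups, 5 of them lower and 1, Utf1, higher after knockdown.

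Of the 16 KLF probes, 14 were kept, 4 of them were called lower and 2 higher, and 8 did not pass the test. Over all kept probes 22.7% were called lower and 20.9% higher. The share of KLF probes called was thus close to the 43.6% of all kept probes. The KLF calls fell on 3 genes. Klf2 was 1.55-fold lower and Klf4 was lower on all 3 of its probes, by 1.29-fold to 1.51-fold, whereas Klf6 was 4.37-fold higher on its brighter probe. Klf5, Klf3, Klf9, Klf10, Klf13 and Klf16 did not pass the test. Of the 5 kept probes of the naive factors 4 were called lower and 0 higher, and of the 9 kept probes of the other genes 0 were called lower and 2 higher, both of Klf6, 1 of them kept only through the knockdown arrays. The median log2 change was -0.52 over the naive probes, 3 of them of Klf4, and 0.08 over the others, beside -0.03 over all kept probes. Counted by gene on the brightest kept probe, 2 of 3 naive factors were called lower and 1 of the 6 others higher. The shares over all 11782 genes and unnamed probes, called all genes below, were 23.3% lower and 21.9% higher. Medians by gene were -0.52 for the naive factors and 0.14 for the others, beside -0.03 over all genes. Members were grouped with results of these data known, so these counts are a description. RNA was taken from whole cultures, in which fewer cells of a type and less RNA per cell cannot be told apart.

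**Figure D1:**
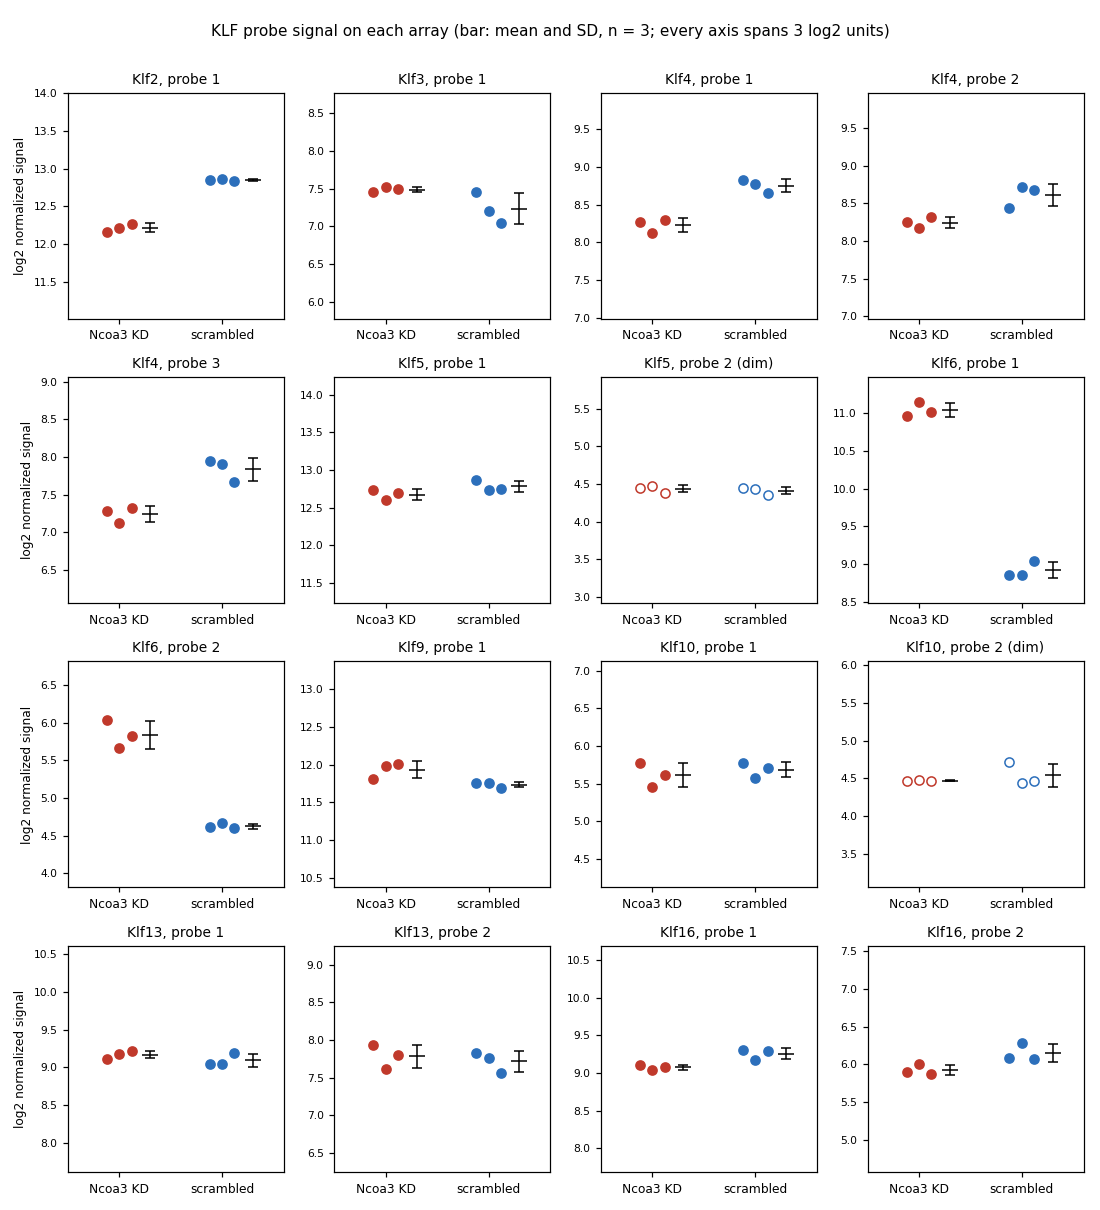
Log2 normalized signal of each of the 16 KLF probes on each array, Ncoa3 knockdown in red and scrambled in blue, with the mean and SD of 3 arrays as bars; open circles mark the 2 probes that were above background on no array, and Klf6 probe 2 was at background in scrambled samples. Klf6 probe 1 lay at 10.97 to 11.15 in knockdown samples, above the 8.86 to 9.05 of scrambled samples, while Klf2 and the 3 Klf4 probes were lower on every knockdown array than on any scrambled array.

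Klf2, which helps to hold embryonic stem cells in the naive state and is degraded when ERK signalling is active, had 1 probe (ILMN_2604029). Its raw signal was 4508, 5237 and 5030 in knockdown samples, against 7259, 7281 and 7304 in scrambled samples. After normalization the values were 12.15, 12.21 and 12.27 in knockdown samples and 12.85, 12.86 and 12.83 in scrambled samples. The groups did not overlap, and the scrambled arrays lay closer together than the knockdown arrays, with means of 12.21 ± 0.06 in knockdown and 12.85 ± 0.01 in scrambled samples (SD, n = 3 each). The log2 change was -0.64 ± 0.06 (SE), with a 95% interval from -0.78 to -0.49 and a limma adjusted p of 0.000202. Groups without overlap in this direction were found for 29.8% of all kept probes.

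Klf4, the factor of the original reprogramming set and a target of STAT3, was read by 3 probes. On the brightest (ILMN_1241903) the normalized values were 8.28, 8.13 and 8.30 in knockdown samples, against 8.83, 8.78 and 8.66 in scrambled samples. The log2 change was -0.52 ± 0.08 (SE), with an interval from -0.70 to -0.34 and a limma adjusted p of 0.00155. On ILMN_1221264 the values were 7.28, 7.13 and 7.32 in knockdown samples and 7.95, 7.90 and 7.67 in scrambled samples, and the change was -0.59 ± 0.10 (SE, limma adjusted p = 0.00219). The remaining probe, ILMN_2999439, gave 8.25, 8.18 and 8.32 in knockdown samples and 8.44, 8.71 and 8.68 in scrambled samples. Its change was the smallest of the 3, at -0.36 ± 0.09 (SE), with a limma adjusted p of 0.0146. All 3 probes had groups without overlap, with knockdown lower, as did 29.8% of all kept probes. ILMN_2999439 was not called without knockdown replicate 2 (-0.33, adjusted p = 0.0528), nor under median scaling of all probes (-0.22, adjusted p = 0.113). In the authors' normalized values, which for knockdown replicate 3 equal the raw signal, the changes were smaller, -0.33, -0.36 and -0.21 in the order given, and all were called.

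Klf5, which acts in the naive network and also in the trophectoderm, the outer layer of the blastocyst, was read by ILMN_1253387. The normalized values were 12.73, 12.60 and 12.69 in knockdown samples, against 12.87, 12.73 and 12.75 in scrambled samples. The groups overlapped, since knockdown replicate 1 lay above scrambled replicate 2. The log2 change was -0.11 ± 0.07 (SE), with a 95% interval from -0.28 to 0.06 and a limma adjusted p of 0.250, and no alternative setting of 17 called it. The second Klf5 probe stayed at background on all 6 arrays, with raw signals of 75.7 to 83.6 in knockdown samples and 76.6 to 88.3 in scrambled samples, and gave no fold.

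The within-array difference in log2 signal between the brightest probes of these 3 genes was compared between groups, to ask whether the changes were unequal. Klf2 changed by -0.53 relative to Klf5, and Klf4 by -0.41 relative to Klf5. In both pairs all 3 knockdown arrays lay below all 3 scrambled arrays, and the exact permutation test gave p = 0.1, the smallest that 3 against 3 arrays allow, or 0.15 after adjustment over the 3 pairs. Klf2 changed by -0.12 relative to Klf4, with overlapping groups (exact permutation p = 0.3, adjusted 0.3). An exact test of 3 against 3 arrays cannot reach the 0.05 threshold, so that none of the 3 differences passed it says nothing about their size.

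Klf6, a zinc finger activator that is induced early after injury in several tissues and is known as a growth-restraining factor, had the largest change of the family. On ILMN_2731949 the raw signal was 2024, 2579 and 2125 in knockdown samples, against 509, 503 and 574 in scrambled samples. Normalized values were 10.97, 11.15 and 11.02 in knockdown samples and 8.86, 8.86 and 9.05 in scrambled samples, so that every knockdown array lay far above every scrambled array. The log2 change was 2.13 ± 0.08 (SE), with an interval from 1.93 to 2.32 and a limma adjusted p of 2.96e-06. Under the 17 alternatives it ran from 1.98 to 2.23 and was called each time. The second probe, ILMN_1232041, was above background on 3 of 3 knockdown arrays and on 0 of 3 scrambled arrays. Its normalized values were 6.03, 5.67 and 5.82 in knockdown samples, against 4.61, 4.66 and 4.60 in scrambled samples, whose mean is only a bound. Set against the lowest detected signal of each scrambled array, the second probe was at least 1.60-fold higher after knockdown. It passed the filter only through the knockdown arrays, and its limma adjusted p of 8.08e-05 belongs to the fitted log2 difference of 1.22, not to this bound. The sizes given by the 2 probes differ, and the one on the dim probe fell to between 0.45 and 0.55 on the log2 scale in the authors' values and in both settings that used no negative controls.

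Markers of the trophectoderm were read on the same arrays. Of 8 such markers, 5 were kept and called higher, beside 21.9% called higher over the brightest kept probes of all genes. Of these 5, Cdx2, Gata3 and Krt19 were above background on 0 of 3 scrambled arrays and passed the filter only through the knockdown arrays, so they had to differ and the count is no support. Krt8 and Krt18 were above background on all 6 arrays and had changes of 1.49 and 2.17. The 8 markers had a summed raw signal of 2073 to 2456 in knockdown samples against 939 to 1039 in scrambled samples. The defining factor Cdx2 was at least 5.41-fold and Gata3 at least 3.02-fold higher, both not above background in scrambled samples. Eomes and Hand1 were not above background in either group. Elf5 was not kept, and its brightest probe was above background on 1 of 3 scrambled arrays and 0 of 3 knockdown arrays. Of 6 primitive endoderm markers 3 were kept and 2 were called higher, Gata6 and Sox7. Dab2 at 0.22 was not called (limma adjusted p = 0.110). Pdgfra was not kept, and its brightest probe was above background on 1 of 3 scrambled arrays and 0 of 3 knockdown arrays. Gata4 and Sox17 were not above background. The summed raw signal of the 6 was 714 to 764 in knockdown and 660 to 685 in scrambled samples. None of the 6 fibroblast markers was kept, nor any of the 5 mesoderm markers on the array, and of 5 neural markers only Map2 was kept, with a change of -0.09 that was not called. The part of these markers in the KLF changes was not tested.

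Klf9, a factor induced by glucocorticoid and thyroid hormones, had normalized values of 11.80, 11.99 and 12.01 in knockdown samples, against 11.75, 11.76 and 11.69 in scrambled samples (ILMN_1254031). The knockdown values were all higher, as they were for 25.4% of kept probes, but the lowest of them stood only just above the scrambled ones. The log2 change was 0.20 ± 0.08 (SE), with an adjusted p of 0.0692 by limma, and it was called without knockdown replicate 1 (0.26, adjusted p = 0.0324). Klf3, the CtBP-binding repressor, had 7.46, 7.52 and 7.49 in knockdown samples and 7.45, 7.21 and 7.04 in scrambled samples (ILMN_1239381). Here the knockdown arrays lay together and the scrambled arrays were spread, with scrambled replicate 1 just below the knockdown values. The change was 0.25 ± 0.10 (SE), with an adjusted p of 0.0863 by limma, and it was called without scrambled replicate 1 (0.36, adjusted p = 0.0128). Each of these probes was called in 6 of 17 alternatives and was higher after knockdown in all of them.

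Klf16, of the Sin3a-binding branch, was read by a pair of kept probes. Each was lower on every knockdown array than on any scrambled array, as were 29.8% of all kept probes. ILMN_2889916 had 9.10, 9.04 and 9.08 in knockdown samples, against 9.31, 9.17 and 9.30 in scrambled samples, which gave -0.18 ± 0.07 (SE, limma adjusted p = 0.0573). ILMN_2776651 had 5.902, 5.997 and 5.872 in knockdown samples, against 6.085, 6.285 and 6.075 in scrambled samples, which gave -0.22 ± 0.08 (SE, limma adjusted p = 0.0569). The first was called in 6 of 17 alternatives, among them the one without scrambled replicate 2 (-0.23, adjusted p = 0.0436), and the second in 1 of 16. Under median scaling of all probes the changes shrank to -0.049 (adjusted p = 0.663) and -0.065 (adjusted p = 0.633).

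Klf10, first described as an early gene of TGF-beta signalling, had 1 kept probe (ILMN_2648189) near background. Its normalized values were 5.78, 5.46 and 5.62 in knockdown samples and 5.78, 5.58 and 5.71 in scrambled samples, which overlapped. The change was -0.07, with a 95% interval from -0.30 to 0.16 and a limma adjusted p of 0.596, and the second Klf10 probe stayed at background throughout. Klf13, a factor known for activating the chemokine gene Ccl5 in T lymphocytes, had 9.12, 9.18 and 9.22 in knockdown samples and 9.04, 9.04 and 9.19 in scrambled samples on its brighter probe (ILMN_1218206). Its second probe ran from 7.62 to 7.93 in knockdown samples and from 7.56 to 7.83 in scrambled samples. The groups overlapped on both, with changes of 0.08 and 0.06 and intervals from -0.09 to 0.25 and from -0.18 to 0.31. In the authors' normalized values the brighter Klf13 probe was called higher (0.17, adjusted p = 0.0300).

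**Figure D2:**
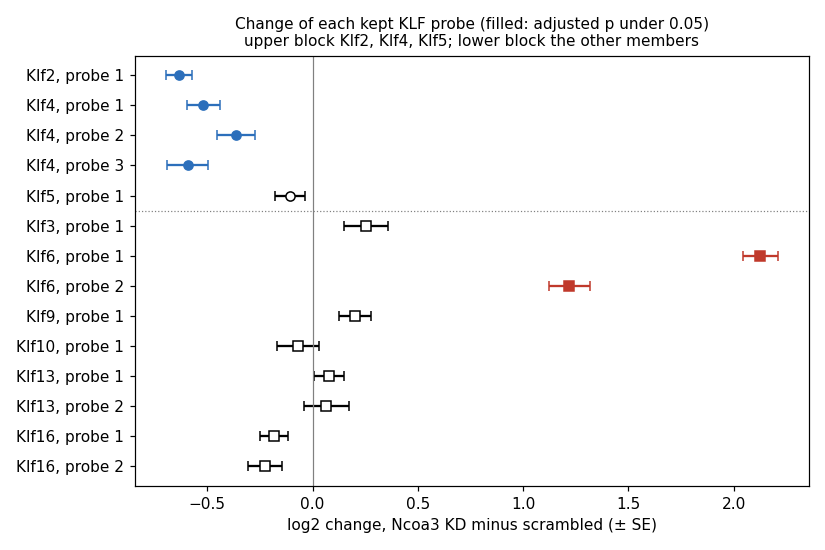
Log2 change of each of the 14 kept KLF probes, knockdown minus scrambled, with its SE; filled symbols passed an adjusted p of 0.05, blue lower and red higher. The naive block runs from -0.64 to -0.11 and the other block from -0.22 to 2.13, with both Klf6 probes to the right of all others.

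The rest of the KLF and SP family was taken as a list, of which 6 of 16 genes on the array were kept, 4 of them called higher and 0 lower, beside 21.9% higher and 23.3% lower over the brightest kept probes of all 11782 genes and unnamed probes. The median log2 change of the 6 was 0.60, beside -0.03 over those 11782. Each of the 6 was above background on all 3 knockdown arrays and on at least 1 scrambled array, Sp3 on 1. Klf7, a factor needed in developing sensory neurons, was 2.84-fold higher, with normalized values of 10.05, 10.10 and 10.10 in knockdown samples against 8.77, 8.47 and 8.50 in scrambled samples and a limma adjusted p of 2.33e-05. Its 3 kept probes had changes from 1.50 to 1.78. Sp5, a target of Wnt signalling that can repress SP1-activated genes, was 5.16-fold higher (adjusted p = 2.66e-06) and the epithelial factor Sp6 1.78-fold higher (adjusted p = 0.000454). Sp3 was higher by 0.36 (adjusted p = 0.0456) and was not called when any single array was left out other than scrambled replicate 3, nor without the dim-probe filter, with the trended prior, array weights or the replicate block. Its change was 0.15 and 0.13 in both settings that used no negative controls and 0.11 in the authors' values (adjusted p = 0.153), and it was not called in any of them. Klf12 at -0.00, whose sign turned in several settings and whose 3 kept probes reached 0.53, and Sp1 at 0.12, whose other probe was at -0.27, did not pass the test, and 10 further genes, among them Klf8, Klf11 and Klf15, stayed at background on all 6 arrays.

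Partners of the naive factors were lower as a list, with 12 of 14 kept genes called lower and 0 higher and a median change of -0.62. Over the brightest kept probes of all genes 23.3% were called lower and 21.9% higher, with a median of -0.03. The largest falls were in Tcl1, a coactivator of Akt, at 3.83-fold, Prdm14, a repressor that guards the naive state, at 2.57-fold, the growth factor Fgf4 at 2.08-fold and the cell cycle factor Mybl2 at 1.97-fold. Sall4 at 0.13, with its second kept probe at -0.37, and Gbx2 at 0.11 did not pass the test. These lists were chosen with results of the same samples known and are not independent evidence of direction.

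RNA of genes in the pathway from the LIF receptor to STAT3 was mostly higher, with a median change of 0.37. The list mixes kinases and receptor chains with a feedback inhibitor, so its median is no measure of signal to Klf4. Of 8 kept genes 6 were called higher and 1 lower, beside 21.9% higher and 23.3% lower over the brightest kept probes of all genes. Among the higher ones were the kinase Jak2 at 0.62, the phosphatase Ptpn11 at 0.57, the feedback inhibitor Socs3 at 0.51 and the receptor chain Il6st at 0.42. The kinase Tyk2 was lower by -0.41 (limma adjusted p = 0.00369) but missed the threshold under median scaling of all probes (-0.27). Lifr, the LIF-binding chain, at 0.25 did not pass the test (adjusted p = 0.0878). Stat3 itself was higher by 0.31 (adjusted p = 0.00654).

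Ubiquitin ligases that act on KLF proteins were called higher in 3 of 6 kept cases and lower in 0, with a median change of 0.48. The shares over the brightest kept probes of all genes were 21.9% higher and 23.3% lower. Fbxw7, the substrate receptor that marks KLF2 and KLF5 for degradation, had 9.71, 9.49 and 9.46 in knockdown samples against 8.73, 8.58 and 8.55 in scrambled samples, which gave 0.93 ± 0.09 (SE, limma adjusted p = 0.00019). Wwp1, a ligase for the same proteins, was higher by 0.59 and Fbxo32 by 0.58. Smurf1 at 0.38 missed the threshold (adjusted p = 0.0517). It was called under cyclic loess (0.42), median scaling (0.54), both settings without negative controls (0.22 and 0.20) and in the authors' values (0.23). Calls also came with the brightest probe of each gene only, probes detected on all 6 arrays only, the trended prior or array weights. Of fits with an array left out, those without knockdown replicate 2 (0.46) or scrambled replicate 2 (0.46) called it. Smurf1 was not called without the dim-probe filter, with the replicate block or with any other array left out. Btrc at 0.04 and Vhl at -0.08 did not pass the test. RNA levels were measured here, not the amount of any KLF protein.

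Genes tied to the other members were mixed. Counts in this paragraph stand beside 21.9% called higher and 23.3% lower over the brightest kept probes of all genes. In the SMAD list, which holds the pathway that induces Klf10, 4 of 7 kept genes were called higher (median of the list 0.31), led by the receptor Tgfbr2 at 1.17 and the SMAD inhibitor Skil at 0.54, with Smad3 at 0.37 and Ski at 0.31. The corepressor Tgif1 of that list was lower by -0.54, and Smad2 at 0.10 and Tgfbr1 at 0.05 did not pass the test. Of the glucocorticoid-induced genes, which share an inducer with Klf9, 3 of 5 kept genes were called lower (median of the list -0.27). These were Fkbp5 at -0.70, Sgk1 at -0.28 and Per1 at -0.27, and 1 was called higher, the phosphatase Dusp1 at 0.73. The receptor gene Nr3c1 and Zbtb16, also on that list, were not above background in either group. Tsc22d3 at 0.22 did not pass the test but was called without scrambled replicate 3 (0.27, adjusted p = 0.0429). It was also called under cyclic loess (0.27), median scaling (0.39) and in the authors' values (0.16). The same held with the brightest probe of each gene only or probes detected on all 6 arrays only, but in no other setting. Per1 was not called without knockdown replicate 1 (-0.27) or 3 (-0.23) or scrambled replicate 2 (-0.23) or 3 (-0.26), under median scaling (-0.11) or in the authors' values (-0.12). Of 8 kept corepressor partners, with a median change of -0.019, 5 did not pass the test. Ctbp2, the partner of Klf3, was higher by 0.37, Sin3a was lower by -0.32 and Sap30 lower by -0.24. Sap30 was not called without knockdown replicate 1 (-0.26) or 2 (-0.21) or scrambled replicate 2 (-0.20) or 3 (-0.25), under median scaling (-0.18), without the dim-probe filter or with the replicate block (adjusted p = 0.0659). Of the ERK5, MEF2 and FOXO inputs to Klf2, known from endothelium, Map2k5 at 0.36 and Foxo3 at 0.33 were higher and Foxo1 at 0.15 did not pass the test. Foxo3 was not called without knockdown replicate 2 (0.27) or 3 (0.33) or scrambled replicate 1 (0.29) or 3 (0.27), nor without the dim-probe filter, which left 1 called gene of the 3 kept.

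**Figure D3:**
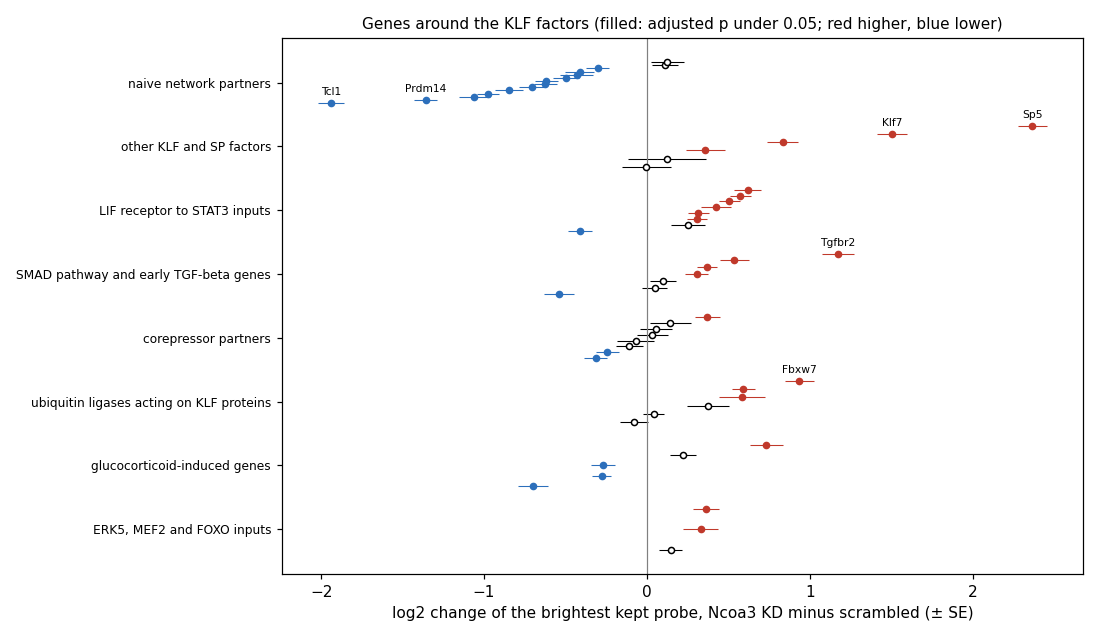
Log2 change of the brightest kept probe of each gene, knockdown minus scrambled with its SE, for 8 lists of genes around the KLF factors; filled points passed an adjusted p of 0.05 and open points did not. The naive partners lie mostly left of 0, led by Tcl1 at -1.94, and the other KLF and SP factors right of it, led by Sp5 at 2.37 and Klf7 at 1.50.

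Genes whose pattern over the 6 arrays was most like that of each naive factor were found by the root mean square difference of log2 values, after each gene was centred on its own mean. Closest to Klf2 were Tlcd1 at 0.0332, Pcbp3 at 0.0341 and the Wnt receptor Fzd5 at 0.0352, with changes of -0.62, -0.65 and -0.66. Closest to Klf4 were Commd10 at 0.0244, Eri3 at 0.0269 and Sapcd2 at 0.0287, with changes from -0.54 to -0.53. Closest to Klf5 were the ubiquitin ligase Arih2 at 0.0225, the mitochondrial phosphatase Pgam5 at 0.0226 and Stradb at 0.0258, none of which passed the test. With 2 groups of 3 arrays the measure mostly reflects the size of the change between groups.

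**Figure D4:**
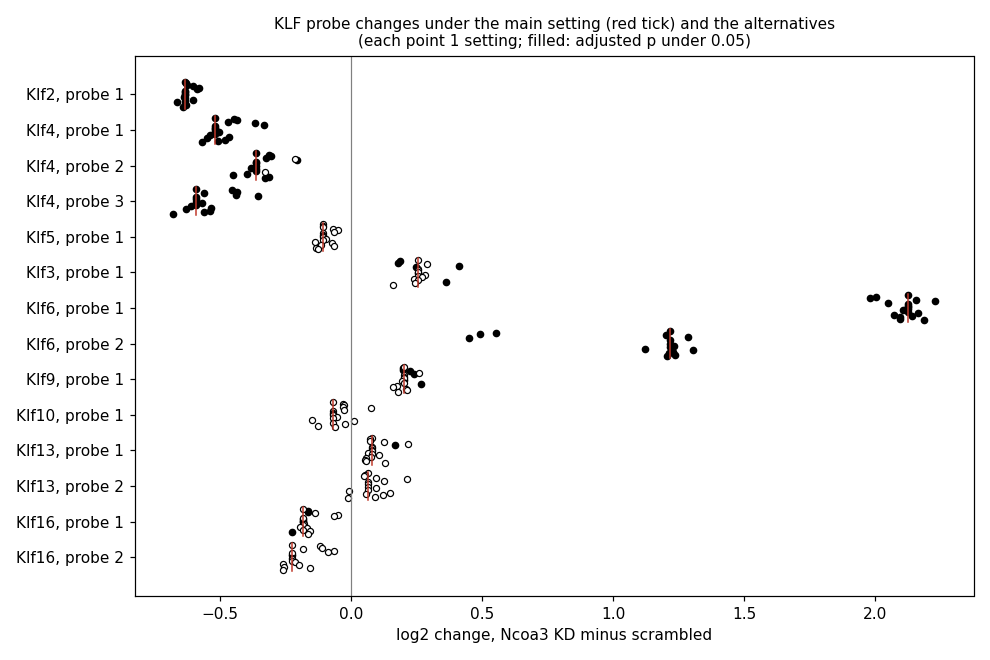
Log2 change of each kept KLF probe, knockdown minus scrambled, under the main setting, marked by a red tick, and the alternatives; each point is 1 setting, filled where the adjusted p was under 0.05. Klf2, Klf4 and Klf6 stay on their side of 0 throughout, Klf6 probe 2 shows points between 0.45 and 0.55, and Klf10 and Klf13 probe 2 have points on both sides of 0.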

How the data were processed

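Total RNA of 6 samples was labelled as biotin cRNA and hybridised to Illumina bead arrays, per the labels' protocols. The deposited intensity values were left non-normalized by the authors, per the file headers, and none was below 0. Beside them the authors deposited a detection p-value for each probe and array. A further table holds the authors' normalized intensity values, on a linear scale, in the same probe order on each array as the raw signal (rank correlation 1), and its method is not given in the sources used here. Its column medians were 89.4, 88.4 and 87.6 for knockdown replicates 1 to 3 and 92.7, 93.5 and 92.4 for scrambled replicates 1 to 3.

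Here limma 3.58.1 (neqc, offset 16, R 4.3.3) inferred the background from those p-values, subtracted it, quantile normalized the arrays and took log2. Probes with a detection p under 0.01 on at least 3 arrays were kept (16674 of 45281). Knockdown was compared with scrambled by lmFit and eBayes, 2-sided and without covariates, on every kept probe. The function was tested on simulated data. A dim group was given its bound as described for Klf6. Symbols were those of GEO's annotation of the platform, and the 16 KLF probes matched RefSeq (GRCm38.p6) by gene number. The number of arrays limits the precision.

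The members and lists were chosen with earlier results of these data known. Named genes are every member probe, Ncoa3 and Esrrb, and up to 4 called genes of each list by size with those that moved against the list or made up a small count; Stat3 and a few others were named after their values were seen. For a list, each gene stood by its brightest kept probe. The alternatives were other background corrections, normalizations, filters, probe choices and priors, array weights, a replicate block, and leaving out single arrays. Slide as a block was not run because the sources used here give no slide.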

Additional observations from a re-analysis of the deposited data

How the results depend on the processing

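Of 232 KLF probe values under 17 alternatives, 206 kept their direction and their side of the threshold. The brightest probes of Klf2, Klf4 and Klf6 were called in the same direction in all 17. The number of called KLF probes was 6 and ran from 4, with one probe a gene, to 9, with either setting without negative-control correction, in the authors' values and with a trended and robust prior. It ran from 5 to 7 when an array was left out. The direction turned for uncalled probes only: Klf10 was at 0.0748 under median scaling of all probes and between -0.149 and 0.00924 with an array left out, and Klf13 probe 2 was between -0.0142 and 0.147. Among uncalled list genes Klf12 was at 0.0274 with cyclic loess, 0.125 under median scaling, 0.0192 with array weights and between -0.172 and 0.139 with an array left out. Vhl was at 0.0842 under median scaling, and with an array left out Sp1 ran from -0.0605 to 0.408 and Tgfbr1 from -0.00639 to 0.101. Of 881 values of list genes 817 kept direction and call, and Lifr, Smad2 and Foxo1 were called under median scaling, at 0.41, 0.25 and 0.29. Smad2 and Foxo1 were also called in the authors' values, at 0.19 and 0.22. The cause was not tested.

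Under median scaling of all probes the median change over kept probes shifted by 0.12 (log2), and 69.9% of called probes were then higher, against 47.9% in the main setting and 59.7% in the authors' values. The total of 7271 called probes ran from 5908 to 6738 with an array left out. No shared deviation of same-numbered arrays was seen between the groups. Their deviations had correlations of -0.00385, -0.00589 and 0.0153, and 0 of 6 arrays correlated best with their own number. With 3 arrays per group these values cannot show whether same-numbered samples were paired. With the replicate block 6644 probes were called, 6 of them KLF probes. Probes near background, such as Klf10 and Klf6 probe 2, are limited by their signal over background, and a small change in them was not detectable.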
